A study of Homo sapiens with 13 samples.

Results

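The 10 genes described here encode chaperones of the endoplasmic reticulum (ER) and components of the unfolded protein response (UPR): *HSPA5*, *HSP90B1*, *CALR*, *CANX*, *PDIA4*, *PDIA6*, *DNAJB9*, *HERPUD1*, *XBP1* and *ATF6*. They were chosen by gene symbol from the 56831 genes listed, all 10 were found, and all 10 passed the filter on low values in both cell lines. RNA was sequenced from H82 and H146, established human small cell lung cancer (SCLC) cell lines labelled as wild type, in order to ask how inhibition of the SWI/SNF ATPases SMARCA4 and SMARCA2 changes the neuroendocrine state. Treated cells received FHD-286, a dual inhibitor of those ATPases, at 100 nM for 14 days with the drug renewed during culture, and untreated cells received none. There were 3 untreated and 3 treated libraries of H82, and 3 untreated and 4 treated libraries of H146. Nothing in the labels states that libraries of a group came from separate cultures, so *p* values measure the spread between these libraries, which may be technical.

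Proteins that enter the secretory pathway fold in the ER with the help of the HSP70 chaperone BiP (*HSPA5*), the HSP90 chaperone GRP94 (*HSP90B1*), the lectins calreticulin and calnexin, and protein disulfide isomerases. When unfolded protein accumulates, the sensors IRE1, PERK and ATF6 signal to the nucleus: IRE1 splices *XBP1* mRNA, ATF6 is cleaved to a transcription factor, and PERK slows translation while favouring ATF4. XBP1 and ATF6 act on chaperone and degradation genes, and ATF4 acts on stress genes such as *DDIT3*. The unit is TPM, transcript abundance corrected for gene length and scaled to a sum of 1000000 in each library. A gene level TPM shows neither *XBP1* splicing nor ATF6 cleavage, so the values below are amounts of mRNA and not activity of the pathway.

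The ER stress response element (ERSE) is the promoter motif through which ATF6, with the factor NF-Y, is known to act on chaperone genes. It was searched as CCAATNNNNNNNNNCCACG on both strands of the RefSeq promoter windows (GRCh38.p14), which run from 250 bases before to 50 bases after each annotated transcription start. It was present in 25 of the 27305 genes with a promoter entry, or 0.0916%, and in 6 of the 10 genes. Some genes have several windows, and a gene was counted if any of them held a match. Since the motif is known from chaperone genes, its share among the 10 is a description and not an enrichment found here. The sites are shown because they are the sequence feature that most of the chaperone genes share, in the direction of each gene with the motif, or its reverse complement, in capitals.
HSPA5, chr9:125241387-125241413, minus strand: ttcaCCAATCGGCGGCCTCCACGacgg
HSP90B1, distal site, chr12:103930212-103930238, plus strand: ctgaCCAATCGGAAGGAGCCACGcttc
HSP90B1, proximal site, chr12:103930317-103930343, plus strand: ggtgCGTGGTGCGGCGCGATTGGtggg
CALR, chr19:12938380-12938406, plus strand: cacgCGTGGTCGACCATCATTGGtcgg
CANX, chr5:179698774-179698800, plus strand: ccggCCAATCTTCACACTCCACGaaga
PDIA6, chr2:10812849-10812875, minus strand: cggaCCAATGAGCCGCAGCCACGgctt
XBP1, chr22:28800599-28800625, minus strand: ctggCCAATCGCGGAGGGCCACGaccg

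The *HSPA5* motif began 66 bases and the *XBP1* motif 52 bases before the annotated start of a window that held it. The proximal *HSP90B1* motif and that of *CALR*, 225 bases before its start, lay on the opposite strand. For all 6 genes with ERSE, the RefSeq start used for the window lies inside the longer span that GENCODE release 44 gives the gene. *HERPUD1* held the related motif ERSE-II (ATTGGNCCACG), found in 0.0696% of genes, 117 bases before its start, and the amino acid response element core (TGATGCAA), found in 1.08% of genes, 176 bases before it; that core is a motif to which ATF4 with a partner is known to bind. Both are shown because *HERPUD1* is the only gene of the 10 with either.
HERPUD1, ERSE-II, chr16:56932021-56932039, plus strand: gccgATTGGGCCACGttgg
HERPUD1, amino acid response element core, chr16:56931962-56931977, plus strand: cgggTTGCATCAgccc

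The windows of *PDIA4*, *DNAJB9* and *ATF6* held no match to any of the 4 motifs searched, and the unfolded protein response element (TGACGTG), present in 2.4% of genes, matched none of the 10. These matches describe letters in a window and are not evidence of binding.

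**Figure D1:**
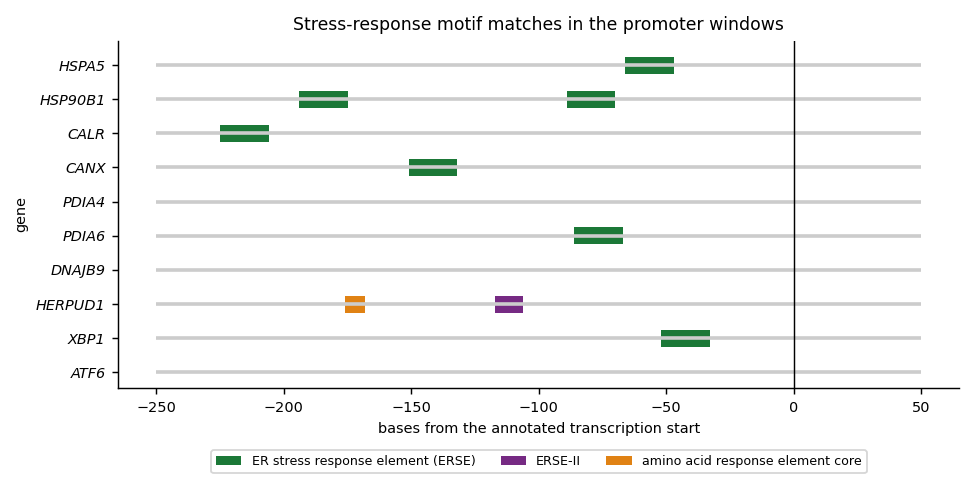
Motif matches in the promoter window of each of the 10 genes, against the distance in bases from the annotated transcription start (vertical line at 0). Grey lines are the windows from 250 bases before to 50 bases after the start, and coloured bars are matches. *CANX* has 4 windows and *PDIA4*, *PDIA6* and *XBP1* have 2 each, drawn as a single line, with distances from the start of a window that held the match. ERSE appears in 6 genes, with 2 matches in *HSP90B1*, and *HERPUD1* carries the other 2 motifs.

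The sequencing depth of a library cannot be read from TPM. Genes at 1 TPM or more numbered 21227 to 21772 in untreated and 15554 to 16633 in treated H82 libraries, and 17476 to 17965 in untreated and 18778 to 19309 in treated H146 libraries. Mitochondrially encoded genes took 22.1% to 24.1% of TPM in untreated and 12.3% to 14.9% in treated H82, against 7.56% to 8.86% and 3.82% to 11.4% in H146. Of the 9 neuroendocrine SCLC markers listed, among them *SYP*, *CHGA* and *UCHL1*, the summed level was 1310 to 1433 TPM in untreated H82 and 3973 to 4440 TPM in untreated H146, with *NEUROD1* below 1 TPM in H146, and it was 1258 to 1642 TPM in treated H82 and 3087 to 3650 TPM in treated H146. In H82 that sum hid changes in opposite directions. *SYP* (193 to 212 TPM untreated, 31.5 to 58.1 TPM treated), *CHGA*, *NEUROD1* and *STMN2* were lower in every treated library than in any untreated one. *UCHL1* (384 to 430 TPM untreated, 808 to 1053.5 TPM treated) and *INSM1* were higher in every treated library, and *CHGB*, *NCAM1* and *DLL3* overlapped. The H146 sum hid opposite directions as well. *UCHL1* (1933 to 2105 TPM untreated, 1356 to 1536 TPM treated), *INSM1* and *DLL3* were lower in every treated H146 library. *CHGB* was higher in every one (70.1 to 84.2 TPM untreated, 194 to 284 TPM treated), and *SYP*, *CHGA*, *NCAM1* and *STMN2* overlapped. The 5 epithelial markers summed to 1.57 to 3.61 TPM in untreated H82 and to 15.7, 114 and 9.17 TPM in treated H82 replicates 1, 2 and 3, whereas in H146 they summed to 2234 to 2404 TPM untreated and to 575 to 647 TPM treated. The 5 fibroblast markers summed to 1.70 to 2.50 TPM in untreated and 7.92 to 33.3 TPM in treated H82, and to 6.52 to 8.64 TPM and 12.6 to 19.6 TPM in H146. The epithelial and fibroblast sums moved with treatment in both lines and the neuroendocrine sum in H146, whereas in H82 the treated neuroendocrine sums spanned the untreated range. The part of these markers in the results below was not tested. Of the plasma and secretory cell markers, *JCHAIN* and *MZB1* were below 1 TPM in all 13 libraries. In bulk samples, fewer cells of a kind and less RNA per cell cannot be told apart.

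In each line a single treated library stood apart in the ER chaperone genes: treated replicate 1 of H82 and treated replicate 2 of H146. The 10 genes summed to 3500 to 3615 TPM in untreated H82 and to 14407, 3328 and 3177 TPM in treated replicates 1, 2 and 3. In H146 they summed to 5489 to 5960 TPM untreated and to 3788, 7842, 2615 and 2599 TPM in treated replicates 1 to 4. Treated H82 replicate 1 was the highest of the treated libraries in 9 of the 10 genes and exceeded every untreated library in those 9, and treated H146 replicate 2 was the highest in 10 of the 10. The epithelial and fibroblast marker sums of both libraries lay between those of the other treated libraries of their line, as did the neuroendocrine sum of H82 replicate 1. Other sums did not. The neuroendocrine sum of H146 replicate 2, at 3650 TPM, was the highest of the treated H146 libraries. The leukocyte marker sum was the highest treated value in H82 replicate 1 (4.28 TPM) and the lowest in H146 replicate 2 (9.72 TPM). Endothelial sums, below 1 TPM in treated cells, were lowest in both libraries. *SDC1*, the remaining plasma and secretory cell marker, was at 8.24 TPM in H82 replicate 1, against 3.98 and 3.90 TPM in the other treated H82 libraries, but at 51.4 TPM in H146 replicate 2, against 86.9 to 94.5 TPM in the other treated H146 libraries. For each of the 10 genes and each list, values are given below with all libraries and, where the call or the count changed, without the library that stood apart. That library was picked by the values of these same 10 genes, so the smaller standard errors without it follow in part from that choice. Adjusted *p* values without it therefore describe the libraries that remain and are not independent tests.

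**Figure D2:**
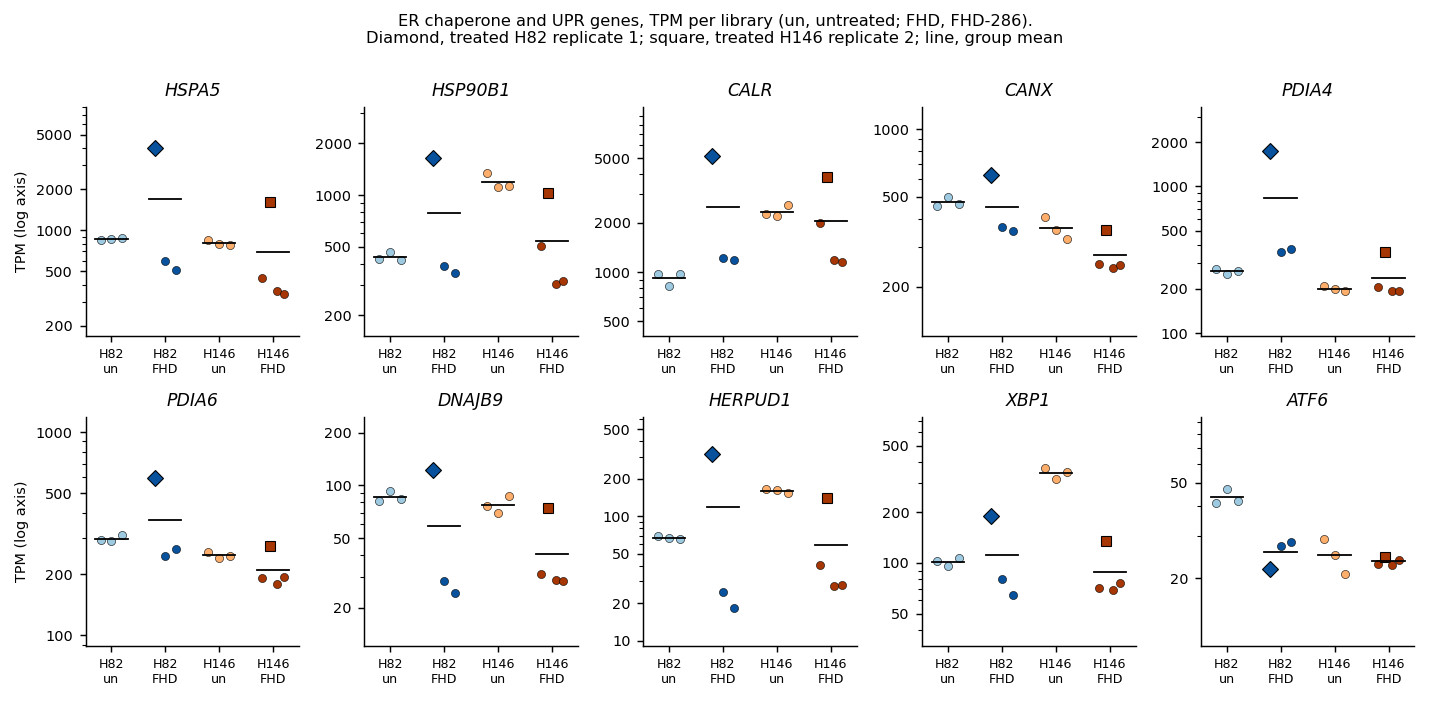
TPM on a log axis (vertical) of the 10 genes in each of the 13 libraries, by line and treatment (horizontal). Points are libraries, the horizontal line is the group mean, the diamond is treated H82 replicate 1 and the square is treated H146 replicate 2. The diamond lies above all other H82 libraries in every gene but *ATF6*, and the square is the highest treated H146 library in every gene.

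*HSPA5*, the master chaperone of the ER lumen, was at 856, 871 and 877 TPM in the untreated H82 libraries. In treated H82 it was at 4001, 592 and 511 TPM in replicates 1, 2 and 3. Replicate 1 was 4.61-fold above the untreated mean, while the other two treated libraries lay below every untreated library. The log2 fold change over all H82 libraries was 0.30 (SE 0.74, adjusted *p* = 0.75), and without replicate 1 it was -0.66 (SE 0.09, adjusted *p* = 0.00105). With the median of ratios the latter call was lost (-0.18, adjusted *p* = 0.139). Untreated H146 had 852, 793 and 786 TPM of *HSPA5*, and treated H146 had 452, 1619.9, 361 and 340.3 TPM in replicates 1 to 4. Replicate 2 was 2.00-fold above the untreated mean and the other three treated libraries lay below every untreated library. The log2 fold change in H146 was -0.56 (SE 0.49, adjusted *p* = 0.37) with all libraries and -1.08 (SE 0.13, adjusted *p* = 0.000271) without replicate 2.

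*HSP90B1*, the ER member of the HSP90 family, stood at 425, 467 and 419 TPM in untreated H82 and at 1635, 387 and 353 TPM in treated H82. The 3 treated libraries thus fell on both sides of the untreated range, and its log2 fold change was 0.48 (SE 0.56, adjusted *p* = 0.494). Without replicate 1 it fell by 0.24 (SE 0.08, adjusted *p* = 0.0399), a direction that turned with the scaling. In H146 its TPM was 1341, 1110.5 and 1133 untreated and 509, 1030.2, 305 and 315 treated, so that the groups did not overlap even with replicate 2 included. It fell by 1.33 on the log2 scale (SE 0.39, adjusted *p* = 0.0219), and by 1.70 without replicate 2 (SE 0.20, adjusted *p* = 0.000242). With quantile normalization and all libraries the call was lost (-1.16, adjusted *p* = 0.0515).

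*CALR* and *CANX* encode calreticulin and calnexin, the soluble and the membrane-bound lectin that hold glycoproteins during folding. *CALR* was at 967, 817 and 979 TPM in untreated H82 and at 5153, 1214 and 1181 TPM in treated H82. All 3 treated libraries exceeded all untreated ones, but the log2 fold change of 1.08 (SE 0.56) did not pass the test (adjusted *p* = 0.138). Without replicate 1 *CALR* rose by 0.38 (SE 0.10, adjusted *p* = 0.0164). In H146 *CALR* was at 2254, 2212 and 2564 TPM untreated and at 2012, 3824, 1185 and 1153 TPM treated. Its log2 fold change there was -0.38 (SE 0.39, adjusted *p* = 0.448), and without replicate 2 it fell by 0.74 (SE 0.22, adjusted *p* = 0.0181).

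*CANX* was at 457, 499.5 and 466 TPM in untreated H82 and at 628, 368 and 353 TPM in treated H82, with a log2 fold change of -0.13 (SE 0.25, adjusted *p* = 0.681). Without replicate 1 it fell by 0.39 (SE 0.07, adjusted *p* = 0.00372), a call lost with the median of ratios (0.088, adjusted *p* = 0.311). Untreated H146 had 406, 358 and 327 TPM of *CANX*, and treated H146 had 253, 358, 243 and 249 TPM. Only the library of replicate 2 reached the untreated range, and the log2 fold change was -0.41 (SE 0.16, adjusted *p* = 0.0652). Without that library *CANX* fell by 0.54 (SE 0.11, adjusted *p* = 0.00375).

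*PDIA4* and *PDIA6* encode disulfide isomerases that occur in complexes with BiP. *PDIA4* was at 275, 252 and 264 TPM in untreated H82 and at 1748, 359.8 and 377 TPM in treated H82. As with *CALR*, all treated libraries lay above all untreated ones, with replicate 1 6.63-fold above the untreated mean, the largest such ratio of the 10 genes in any treated library. The log2 fold change of 1.23 (SE 0.58) did not pass the test (adjusted *p* = 0.11), and without replicate 1 *PDIA4* rose by 0.48 (SE 0.07, adjusted *p* = 0.00159). In H146 *PDIA4* was at 209, 199 and 195 TPM untreated and at 206, 359, 195 and 193 TPM treated. Apart from replicate 2 the treated values lay within or next to the untreated ones, and the log2 fold change was 0.19 (adjusted *p* = 0.489) with all libraries and, without that library, -0.02 with a 95% interval of -0.24 to 0.20.

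*PDIA6* was at 296, 292 and 310.0 TPM in untreated H82 and at 594, 246 and 266 TPM in treated H82 (log2 fold change 0.18, SE 0.33, adjusted *p* = 0.67). Without replicate 1 it fell by 0.23 (SE 0.07, adjusted *p* = 0.0278), again a direction that turned with the scaling. Untreated H146 had 258, 241 and 246 TPM of *PDIA6*, and treated H146 had 191, 276, 178 and 193 TPM (log2 fold change -0.26, SE 0.16, adjusted *p* = 0.2). Without replicate 2 it fell by 0.40 (SE 0.10, adjusted *p* = 0.00784).

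*DNAJB9* (ERdj4), a BiP co-chaperone known to restrain IRE1, and *HERPUD1*, a membrane protein of ER-associated degradation, were the genes of the 10 that lay farthest below untreated cells in treated H82 replicates 2 and 3. *DNAJB9* was at 81.9, 93.4 and 84.1 TPM in untreated H82 and at 123, 28.7 and 24.4 TPM in treated H82. Its log2 fold change was -0.95 (SE 0.56, adjusted *p* = 0.189), and it fell by 1.67 without replicate 1 (SE 0.10, adjusted *p* = 0.000142). Untreated H146 had 76.5, 69.9 and 87.2 TPM of *DNAJB9*, and treated H146 had 31.2, 74.0, 29.0 and 28.7 TPM. It fell by 1.04 with all libraries (SE 0.32, adjusted *p* = 0.0258), although replicate 2 lay within the untreated range, and by 1.36 without that library (SE 0.12, adjusted *p* = 6.54e-05).

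*HERPUD1* was at 70.0, 66.5 and 66.1 TPM in untreated H82 and at 314, 24.9 and 18.3 TPM in treated H82. The highest treated library was 17.2-fold above the lowest, the widest range of the 10 genes in any group, and the log2 fold change of -0.34 had an SE of 0.97 (adjusted *p* = 0.779). Without replicate 1 it fell by 1.62 (SE 0.13, adjusted *p* = 0.000264). Untreated H146 had 165, 164 and 153 TPM of *HERPUD1*, and treated H146 had 40.3, 140.3, 27.6 and 27.9 TPM, with no overlap. It fell by 1.79 (SE 0.50, adjusted *p* = 0.0189), and by 2.32 without replicate 2 (SE 0.16, adjusted *p* = 1.89e-05).

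*XBP1*, which encodes the transcription factor of the IRE1 arm, was, with all libraries, the gene of the 10 that fell most in H146. It was at 370.0, 317 and 348 TPM in the untreated and at 71.1, 136, 69.2 and 76.4 TPM in the treated H146 libraries. Replicate 2 was the highest treated library, yet it remained 2.54-fold below the untreated mean. *XBP1* fell by 2.01 (SE 0.23, adjusted *p* = 0.000309), and by 2.24 without replicate 2 (SE 0.11, adjusted *p* = 4.76e-06). In H82 *XBP1* was at 102, 95.6 and 108 TPM untreated and at 190.3, 80.5 and 64.4 TPM treated. The log2 fold change there was -0.03 (SE 0.38, adjusted *p* = 0.954), and -0.49 without replicate 1 (SE 0.11, adjusted *p* = 0.00919). With the median of ratios the latter call was lost (-0.017, adjusted *p* = 0.91).

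*ATF6*, which encodes the membrane-tethered sensor and transcription factor, was the exception to the pattern of the chaperones. It was at 41.3, 47.1 and 41.9 TPM in untreated H82 and at 21.7, 27.2 and 28.3 TPM in treated H82, with replicate 1 the lowest. It fell by 0.74 (SE 0.15, adjusted *p* = 0.00566), close to the median log2 fold change of all genes tested in H82, which was -0.56. Without replicate 1 it fell by 0.62 (SE 0.09, adjusted *p* = 0.00175). With the median of ratios the call was lost with all libraries (-0.26, adjusted *p* = 0.129) and without replicate 1 (-0.16, adjusted *p* = 0.147). In H146 the values were 29.2, 24.9 and 20.9 TPM untreated and 23.0, 24.5, 22.7 and 23.8 TPM treated. All treated values lay within the untreated range, and the log2 fold change was -0.07 with a 95% interval of -0.39 to 0.24.

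**Figure D3:**
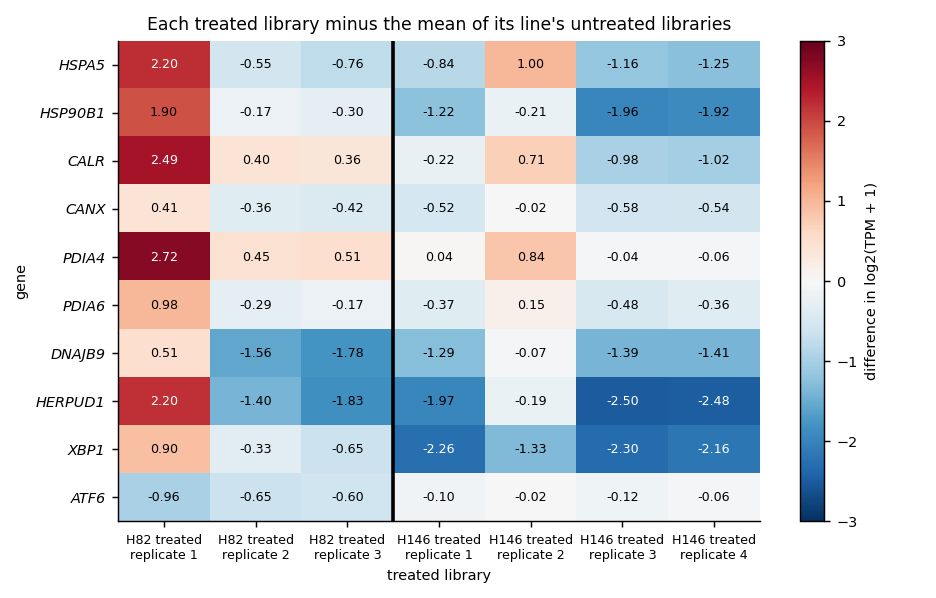
Difference in log2(TPM + 1) between each treated library (columns, H82 left of the line and H146 right of it) and the mean of the untreated libraries of its line, for the 10 genes (rows); red is higher and blue lower. H82 replicate 1 is red in 9 genes, by up to 2.72 in *PDIA4*, and H146 replicate 2 lies between -0.21 and 1.0 except in *XBP1*, at -1.33.

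In H82, 1 of the 10 genes passed the test with all libraries, *ATF6*, which was lower, against a background of 58.6% of the 19770 genes tested (45.5% lower, 13.1% higher). With the median of ratios the 1 gene that passed was *PDIA4* (1.72, adjusted *p* = 0.0477) in place of *ATF6*. The groups did not overlap for 3 of the 10 (*CALR*, *PDIA4* and *ATF6*), against 67.8% of all genes tested. Without treated replicate 1, 10 of 10 passed, 8 lower and 2 higher (*CALR* and *PDIA4*), where the background was 70.6% (52.2% lower, 18.4% higher). The median log2 fold change of the 10 was then -0.44, against -0.56 over all genes tested. Of the 8 lower genes, *XBP1*, *CANX*, *HSP90B1* and *PDIA6* fell by less than that all-gene median. Directions of small changes in H82 turned with the scaling. After the median of ratios between libraries, and without replicate 1, 6 of 10 passed, against 38.6% of all genes lower and 31.2% higher: *DNAJB9* (-1.20) and *HERPUD1* (-1.15) were lower, *PDIA4* (0.96), *CALR* (0.86), *PDIA6* (0.25) and *HSP90B1* (0.24) were higher, and *HSPA5* was at -0.18 (adjusted *p* = 0.139). *CANX* (0.088), *XBP1* (-0.017) and *ATF6* (-0.16) did not pass there either. The lower *HSP90B1* and *PDIA6* of the TPM scale were thus higher on that scale, whereas *CALR*, *PDIA4*, *DNAJB9* and *HERPUD1* kept their direction without replicate 1.

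In H146, 4 of 10 passed with all libraries and all 4 were lower (*XBP1*, *HERPUD1*, *HSP90B1* and *DNAJB9*), against a background of 47.9% of the 19585 genes tested (15.5% lower, 32.5% higher). The median log2 fold change of the 10 was -0.49, against 0.25 over all genes tested. The groups did not overlap for 3 of 10 (*HSP90B1*, *HERPUD1* and *XBP1*), against 52.9% of all genes tested. Without treated replicate 2, 8 of 10 were lower and 0 higher by limma, with 0 of 10 higher also at an unadjusted *p* under 0.05, against a background of 58.8% (19.6% lower, 39.3% higher); the exceptions were *PDIA4* and *ATF6*. With the median of ratios 7 of 10 were lower with all libraries, against 25.1% of all genes lower and 21.3% higher, and 10 of 10 without replicate 2, against 30.4% lower and 26.7% higher. With quantile normalization 3 of 10 passed, *HSP90B1* being the call lost.

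**Figure D4:**
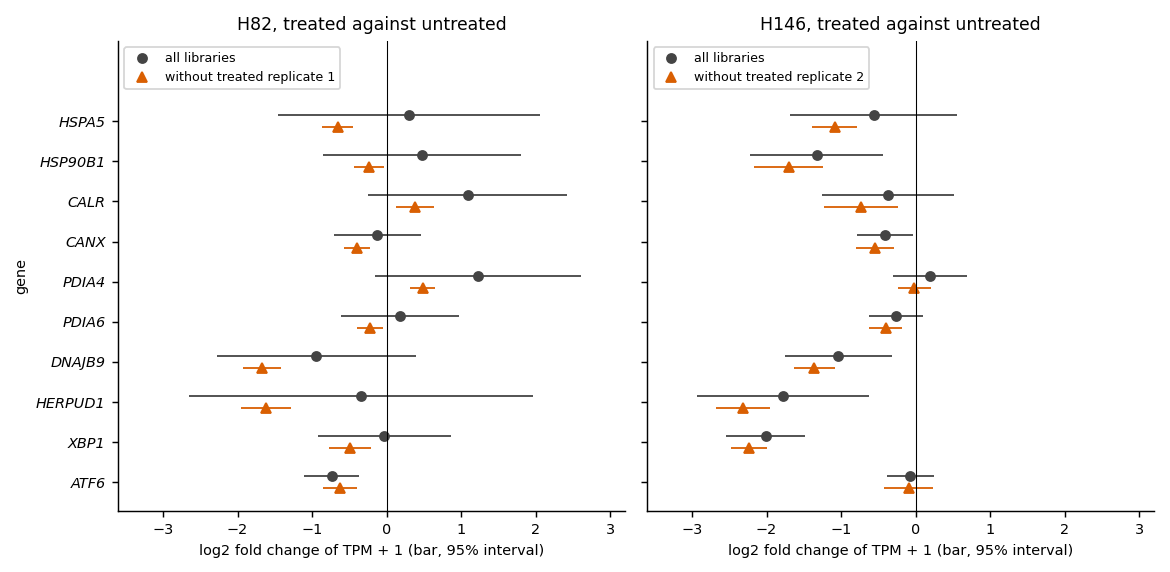
Log2 fold change of TPM + 1, treated against untreated (horizontal), with its 95% interval (bars), for the 10 genes (vertical) in H82 (left) and H146 (right). Circles are fits with all libraries and triangles are fits without treated replicate 1 of H82 or replicate 2 of H146. The intervals narrow without that library in every gene except *ATF6* in H146, and in H82 *CALR* and *PDIA4* are the triangles above 0.

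The difference between the treatment effects of the lines was tested as an interaction over all 13 libraries. It passed for 2 of the 10 genes, against 59.3% of the 24374 genes tested. For *XBP1* the effect in H82 minus that in H146 was 1.98 on the log2 scale (SE 0.47, adjusted *p* = 0.0031), and for *ATF6* it was -0.66 (SE 0.20, adjusted *p* = 0.0115); the latter became 0.12 (adjusted *p* = 0.565) with the median of ratios. *HSP90B1* had a difference of 1.80 (SE 0.74, adjusted *p* = 0.0514). With both libraries that stood apart left out, 7 of 10 passed, against 65.8%: *XBP1* (1.75), *HSP90B1* (1.46), *CALR* (1.12), *HERPUD1* (0.70), *PDIA4* (0.50), *HSPA5* (0.43) and *ATF6* (-0.53). *DNAJB9*, *CANX* and *PDIA6* did not pass, and the 95% interval for *DNAJB9* ran from -0.66 to 0.04.

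The lines also differed before treatment. In untreated H82 the order of mean TPM was *CALR* (921), *HSPA5* (868), *CANX* (474), *HSP90B1* (437), *PDIA6* (299), *PDIA4* (264), *XBP1* (102), *DNAJB9* (86.5), *HERPUD1* (67.5) and *ATF6* (43.4). The ranges of *CALR* and *HSPA5* overlapped, as did those of *CANX* and *HSP90B1*, and the others in that order were separate. In untreated H146 it was *CALR* (2344), *HSP90B1* (1195), *HSPA5* (810), *CANX* (364), *XBP1* (345), *PDIA6* (248), *PDIA4* (201), *HERPUD1* (161), *DNAJB9* (77.9) and *ATF6* (25.0), where only *CANX* and *XBP1* overlapped. Untreated H82 was lower than untreated H146 in *XBP1* by 1.75 on the log2 scale (SE 0.34, adjusted *p* = 0.0005), in *HSP90B1* by 1.45 (SE 0.54, adjusted *p* = 0.0291) and in *CALR* by 1.35 (SE 0.54, adjusted *p* = 0.0389), and higher in *ATF6* by 0.78 (SE 0.14, adjusted *p* = 0.0003). These were 4 of 10 called, against 70.9% of genes. The standard errors came from the fit over all 13 libraries, so they include the spread between treated libraries. *HERPUD1*, among others, did not overlap between the untreated lines (66.1 to 70.0 against 153 to 165 TPM) but was not called (adjusted *p* = 0.213). Without both libraries that stood apart, 4 of the 10 were lower and 4 higher, against 18533 of 23816 genes called. The calls between the untreated lines depended on the processing. Quantile normalization lost *HSP90B1* (-1.01, adjusted *p* = 0.101) and added *CANX* and *PDIA6*, both higher in H82. With any 1 untreated library left out, 1 of the 10 was lower and 1 higher, against 14420 to 15889 genes called. In treated cells, *XBP1* at 64.4 to 80.5 TPM in H82 replicates 2 and 3 and at 69.2 to 76.4 TPM in H146 replicates 1, 3 and 4 lay in one range, with 190.3 and 136 TPM in the libraries that stood apart.

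The other genes of the pathway were described from 8 lists of 106 genes, of which 104 were tested in H82 and 106 in H146. In H82, 22 were lower and 14 higher (21.2% and 13.5%, against 45.5% and 13.1% of all genes tested), and in H146, 25 were lower and 23 higher (23.6% and 21.7%, against 15.5% and 32.5%). Without the library that stood apart, 40 of 103 were lower and 32 higher in H82 (38.8% and 31.1%, against 52.2% and 18.4%), and 39 of 106 were lower and 26 higher in H146 (36.8% and 24.5%, against 19.6% and 39.3%). Scaled by the median of ratios, the lists gave 10 lower and 42 higher in H82, against 32.9% and 24.2% of all genes, and 42 lower and 15 higher in H146, so the balance of directions in the lists is not independent of the scaling.

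Among the 9 UPR sensors and transcription factors, *ERN1* (IRE1 alpha) was at 61.5, 63.8 and 66.1 TPM in untreated H82 and at 33.7, 18.3 and 21.9 TPM in treated H82, and it fell by 1.38 (adjusted *p* = 0.00199). *MBTPS1*, the protease that cuts ATF6, fell by 0.65 and *EIF2AK3* (PERK) by 0.65 in H82. *ATF6B* was at 57.3 to 63.0 TPM untreated and 54.4 to 70.1 TPM treated, and *MBTPS2*, *CREB3L2*, *ATF4* and *DDIT3* did not pass in H82 either. *ERN2*, the IRE1 paralogue of mucosal epithelia, was under the filter in H82. *DDIT3*, the stress factor CHOP, was at 23.3, 18.7 and 19.9 TPM in untreated and 432, 17.1 and 9.56 TPM in treated H82, so that replicate 1 was again the library far above the rest. *ATF4* likewise was at 733 to 759 TPM untreated and 1433, 436 and 423 TPM treated.

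In H146, *DDIT3* was at 453, 380.2 and 383 TPM untreated and at 42.9, 264, 30.8 and 27.6 TPM treated, and it fell by 2.83 (adjusted *p* = 0.0103). *ATF4* fell by 1.03 (adjusted *p* = 0.0032), while *MBTPS2* rose by 0.83, *MBTPS1* by 0.71 and *ATF6B*, from 88.5 to 99.0 TPM untreated to 135 to 172 TPM treated, also rose. *ERN2*, at 1.31 to 1.50 TPM untreated and 0.04 to 0.11 TPM treated, passed the filter only through its untreated libraries. Its fall of 1.14 was thus set by the filter and is not read as a result. *ERN1* had a log2 fold change of -0.84 (adjusted *p* = 0.163), with treated replicate 2 at 64.5 TPM and the others at 14.1 to 25.5 TPM. *EIF2AK3* and *CREB3L2* did not pass. With all libraries 3 of the list's 8 tested genes were lower in H82 and 0 higher, and 3 of 9 were lower and 3 higher in H146. Without the library that stood apart 5 were lower in H82, and 6 were lower and 3 higher in H146. Both counts of lower genes in H146 include *ERN2*.

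Of the 8 genes of the PERK and integrated stress response arm, 1 was lower and 1 higher in H82. *PPP1R15B*, a regulatory subunit of the phosphatase that acts on eIF2 alpha, fell by 1.35, and *DDIT4*, an inhibitor of mTORC1 signalling, rose by 1.08 (adjusted *p* = 0.0437). Without H82 replicate 1, 7 were lower and *DDIT4*, at 0.99, no longer passed (adjusted *p* = 0.0839). In H146, 5 were lower, from *ATF3*, a stress-induced transcription factor that fell by 2.95, to *PPP1R15A* (GADD34), which fell by 1.48, and 7 were lower without replicate 2. *ATF3* was at 369, 316 and 335 TPM in untreated H146 and at 27.8, 106, 35.1 and 32.7 TPM in treated H146.

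Of the 18 other ER chaperones and co-chaperones, 3 were lower and 3 higher in H82, and the list's median was 0.36 on the log2 scale. *SDF2L1*, which encodes a protein found with BiP and its co-chaperones, rose by 2.33 (adjusted *p* = 0.00165), from 46.5 to 66.7 TPM untreated to 524, 234 and 204 TPM treated, and *CNPY2* fell by 1.0. In H146, 2 were lower and 3 higher, between *DNAJC10*, a disulfide reductase of the ER that fell by 0.83, and the prolyl isomerase gene *FKBP14*, which rose by 1.32. Without the library that stood apart, 5 were lower and 7 higher in H82 and 7 lower and 3 higher in H146. Of the 14 other disulfide isomerases and oxidases, 2 were lower and 1 higher in H82 and 4 were lower and 3 higher in H146. Without that library the counts were 2 lower and 3 higher of 13 in H82 and 4 and 4 in H146. *ERP29*, an ER protein of the disulfide isomerase fold, rose by 0.93 in H82 and fell by 1.23 in H146, and the difference of 2.17 passed its own test (SE 0.19, adjusted *p* = 2.99e-06). *TMX3* fell by 1.25 in H82 and *TMX4* rose by 1.12 in H146; both encode membrane thioredoxins of the ER.

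Among the 7 lectin cycle and glucosidase genes, 0 passed in H82 by limma (3 at an unadjusted *p* under 0.05, 2 lower and 1 higher), where 2 were lower and 3 higher without replicate 1, and 4 of 7 were higher in H146, from the mannosidase gene *MAN1B1* (0.95) to *MLEC* (0.81), which encodes the lectin malectin. In ER-associated degradation, 4 of 17 were lower and 3 higher in H82, and in H146 0 of 18 were lower by limma (0 also at an unadjusted *p* under 0.05) and 9 higher. Without the library that stood apart, 7 were lower and 5 higher in H82, and 3 were lower and 9 higher in H146. *EDEM2* rose by 1.24 and *EDEM3* fell by 1.36 in H82, both encoding proteins that trim mannose from misfolded glycoproteins, and in H146 *ERLEC1*, which encodes an ER lectin, rose by 0.33. In ER translocation, 4 of 17 were lower and 5 higher in H82 and 5 lower and 1 higher in H146. Without the library that stood apart, 7 were lower and 7 higher in H82, and 6 lower and 0 higher in H146 by limma (1 higher at an unadjusted *p* under 0.05). *SEC11C*, a catalytic subunit of signal peptidase, rose by 1.66 in H82 and fell by 1.90 in H146, a difference of 3.56 (SE 0.30, adjusted *p* = 2.33e-06). *SPCS3* of the same enzyme fell by 0.60 in H82, and the translocon gene *SEC61A2* rose by 0.42 in H146 (adjusted *p* = 0.0435), a call lost without replicate 2 (0.36, adjusted *p* = 0.0586).

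The 15 chaperones of cytosol and mitochondria served as a comparison outside the ER. In H82, 5 were lower and 1 higher, *TRAP1* of mitochondria (0.57), and in H146, 6 were lower and 0 higher by limma (1 higher at an unadjusted *p* under 0.05). Without the library that stood apart, 5 were lower and 7 higher in H82, and 6 lower and 3 higher in H146. *HSPA1A* fell by 2.23 in H82 and *HSPA1B* by 2.49 in H146; these near-identical genes share reads, so their separate values are uncertain. *HSPA9*, the mitochondrial HSP70, fell by 0.48 in H146. Cytosolic chaperones differed among themselves in treated H82 replicate 1. *HSPA8* was at 986 to 1045 TPM untreated and at 375, 1802 and 1998 TPM treated, and *HSP90AA1* was at 2007 to 2269 TPM untreated and at 460.5, 2372 and 2667 TPM treated. *HSP90AB1*, at 3327.5 to 3389.7 TPM untreated and at 3438, 4578 and 5429 TPM treated, was not below untreated cells in that library. *HSPA8*, *HSP90AA1* and *HSP90AB1* were chosen after their values were seen.

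The libraries that stood apart were described list by list, by the median over genes of the log2 difference between each treated library and the mean of the other treated libraries of its line. For the 10 genes this median was 2.12 in H82 replicate 1 and 1.10 in H146 replicate 2, and between -1.08 and -0.18 in the other treated libraries. The mean to which those other libraries were compared includes the one that stood apart, so their negative medians are not a separate observation. Over all genes tested it was between -0.07 and 0.07 in every treated library. The PERK and integrated stress response arm stood at 2.84 in H82 replicate 1 and 0.63 in H146 replicate 2, the other ER chaperones at 0.62 and 0.50, and the chaperones of cytosol and mitochondria at -0.63 and -0.53. The UPR sensors and transcription factors stood at 0.68 and 0.30, and the other disulfide isomerases and oxidases at -0.57 and 0.15. The median of the lectin cycle genes was -0.47 and 0.12, that of ER-associated degradation 0.07 and 0.12, and that of ER translocation -0.14 and 0.06. These medians carry no test, since they describe single libraries.

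**Figure D5:**
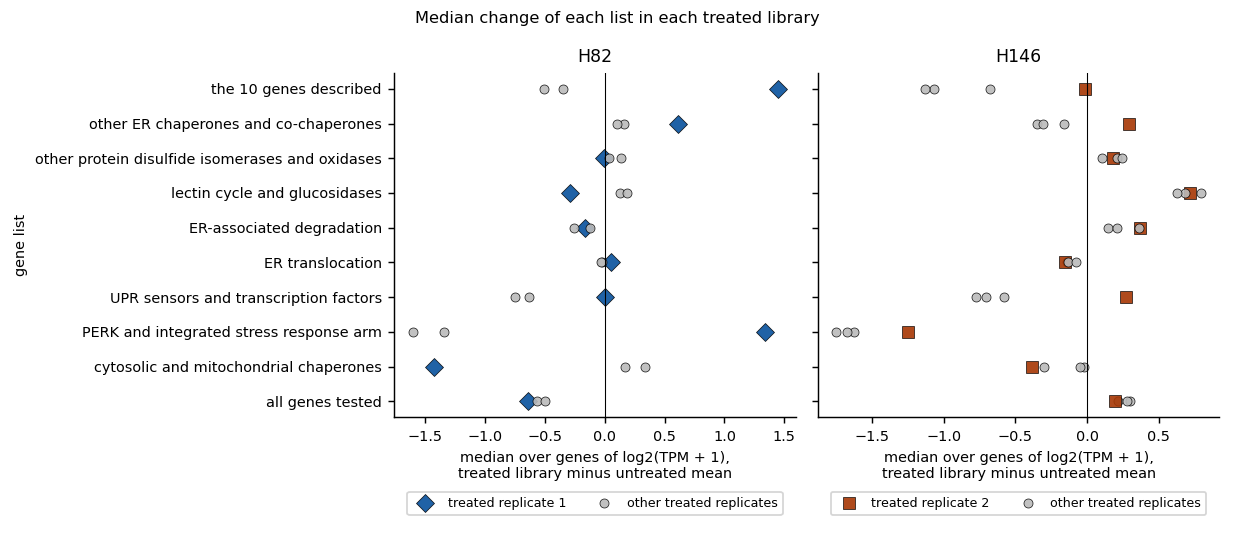
Median over the genes of each list (vertical) of the difference in log2(TPM + 1) between a treated library and the mean of the untreated libraries of its line (horizontal), for H82 (left) and H146 (right). The diamond is treated H82 replicate 1, the square is treated H146 replicate 2 and grey circles are the other treated libraries. The 10 genes and the PERK arm separate the diamond from the circles most, at 1.44 and 1.34, and the cytosolic and mitochondrial chaperones lie on the other side at -1.43.

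Of the 104 genes in the 10 and the 8 lists that had a promoter entry, 12 held ERSE or ERSE-II: 7 of the 10 genes, and *HYOU1*, *SDF2L1*, *CRELD2*, *SERP1* and *ERO1B*. Since those 7 are among the genes by which the libraries were seen to stand apart, no contrast between genes with and without a match is read as a result. The log2 differences of all 10 from the untreated mean in H82 replicate 1 are given without such a reading. With a match they were 2.49 for *CALR*, 2.20 for *HSPA5*, 2.20 for *HERPUD1*, 1.90 for *HSP90B1*, 0.98 for *PDIA6*, 0.90 for *XBP1* and 0.41 for *CANX*. Without a match they were 2.72 for *PDIA4*, 0.51 for *DNAJB9* and -0.96 for *ATF6*.

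The genes most like *HSPA5* across the 13 libraries, by Pearson correlation of log2(TPM + 1) after the mean of each line was subtracted, were *HYOU1* (r = 0.969), *PDIA6* (0.963), *RPL4* (0.954), *EEF2* (0.951) and *RPL7* (0.951), among 7866 genes with a mean of at least 10 TPM in each line. *HYOU1* encodes another ER chaperone, while *RPL4* and *RPL7* encode ribosomal proteins and *EEF2* a translation elongation factor. Of the 10 genes, *HERPUD1* ranked 11 (0.918), *HSP90B1* 21, *CALR* 26 and *CANX* 35, *DNAJB9* 130, *PDIA4* 155 and *XBP1* 323, and *ATF6* had a correlation of -0.24. The points share libraries and 2 of the 13 lie far from the rest, so these values describe likeness and carry no test.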

How the data were processed

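The authors sequenced total RNA, trimmed reads with Trim Galore 0.4.4 (per the labels), mapped and counted them on hg38 using STAR and GENCODE release 28, and deposited TPM, 1 table per line. Strand and gene lengths used are not given in the sources used here, and TPM carry no depth, so no counting interval was drawn. Here log2(TPM + 1) was fitted in each line by limma 3.58.1 (lmFit, eBayes with trend; R 4.3.3) for genes reaching 1 TPM in 3 or more libraries. Tests were two-sided, Benjamini-Hochberg adjusted across every gene tested, and called under 0.05. The interaction and the untreated contrast used all 13 libraries. Fold changes on this scale understate changes of low genes. The 10 genes and the lists were chosen with earlier results of these data known. Each list's largest and smallest called change per line, every sensor and the 5 genes most like *HSPA5* are named, except 1 list gene that is not reported here. Of the list genes, 1 was matched by its older symbol, and promoters are RefSeq entries (GRCh38.p14). The scripts were tested on simulated data. Alternatives were a pseudocount of 0.1, no filter, a mean TPM above 2, median of ratios, quantile normalization, no mitochondrial genes, a replicate block, no trend and each library left out. Leaving out both libraries that stood apart, and combining their removal with the median of ratios, was chosen after seeing the data. Each library was left out in turn by plan, but which of those fits to print beside the main ones was also chosen after seeing the data.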

Additional observations from a re-analysis of the deposited data

Results flagged for a closer look

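Among the treated H146 libraries, replicate 2 lay apart from the other three in 7 of the 10 genes: the gap to the nearest library, as a share of the range, was 0.913 for *HSPA5*, 0.913 for *CANX*, 0.917 for *PDIA4*, 0.844 for *PDIA6*, 0.944 for *DNAJB9*, 0.888 for *HERPUD1* and 0.892 for *XBP1*, above Dixon's 95% critical value for 4 libraries. Chance gives such a gap in about 1 in 20 groups, and these genes are not independent of each other. For *HSP90B1*, *CALR* and *ATF6* the ratio was 0.719, 0.678 and 0.405. Groups of 3 libraries were not examined in this way, so treated H82 replicate 1 has no such ratio. The treatment effect in H82 minus that in H146 passed the interaction test for *XBP1*, at 1.98, and for *ATF6*, at -0.664.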

How the results depend on the processing

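Depth is unknown, and the spread between treated libraries limits every value. With each library left out, the genes of the 10 that passed numbered 1 to 10 in H82, where 10 passed without treated replicate 1, and 1 to 8 in H146, where 8 passed without treated replicate 2 and 1, *XBP1*, passed without any of the untreated libraries. The difference between the lines gave 2 to 4, against 11489 to 14894 of all genes, and the untreated lines 2 to 6, against 14420 to 17968. All genes passing ranged from 5967 to 13460 in H82, the lower counts each without an untreated library, and from 6339 to 11209 in H146; genes of the 8 lists ranged from 18 to 72 and from 37 to 65. The cause was not tested.

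No filter left 1 of 10 in H146, against 8845 of 40184 genes, and 2 between the untreated lines, against 21041 of 44058. The median of ratios gave 7 in H146, against 9082 of 19585, and 6 for the difference between the lines, against 13730 of 24374. In H82 it gave 1, *PDIA4* in place of *ATF6*, against 11292 of 19770. Quantile normalization gave 1 for the difference, against 12407 of 24374. Leaving out both libraries that stood apart gave 7 for the difference, against 15661 of 23816 genes, and 8 between the untreated lines, against 18533. The median of ratios without that library gave 6 of 10 and 80 list genes in H82, and 10 of 10 and 73 list genes in H146. All genes passing there were 13306 of 19058 and 10874 of 19053. The median of all genes in H82 moved from -0.56 to -0.14 with the median of ratios and -0.05 with quantile normalization, and calls from 77.7% lower to 57.6% and 52.3%; in H146 the median moved from 0.25 to -0.02 and 0.06, and the calls from 32.3% lower to 54.1% and 46.9%. The cause was not tested.

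In H82 the sign turned with quantile normalization for *HSPA5* (-0.37), *HSP90B1* (-0.062) and *PDIA6* (-0.20), with the median of ratios for *CANX* (0.37), *HERPUD1* (0.14) and *XBP1* (0.46), and with the median of ratios without replicate 1 for *HSPA5* (-0.18) and *CANX* (0.088). *PDIA4* in H146 turned to -0.13 with the median of ratios and -0.36 with it and without replicate 2. In the difference between the lines, *CANX* turned to -0.16 with quantile normalization, *ATF6* to 0.12 with the median of ratios, and *DNAJB9* to -0.044 without mitochondrial genes, -0.030 with the replicate block and -0.31 without both libraries. With 1 library left out, the H82 ranges that crossed 0 were those of *HSPA5* (-0.66 to 0.83), *HSP90B1* (-0.24 to 0.87), *CANX* (-0.39 to 0.022), *PDIA6* (-0.23 to 0.41), *HERPUD1* (-1.62 to 0.40) and *XBP1* (-0.49 to 0.28); in H146 *PDIA4* (-0.021 to 0.28) and *ATF6* (-0.19 to 0.041); and in the difference *HSPA5* (-0.094 to 1.39) and *DNAJB9* (-0.63 to 0.51).

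With the replicate number as a block, 1 of 10 passed in H82 and 4 of 10 in H146, and all genes passing were 10958 and 7126; the block changed no other count by over 1.5 times. Deviations of same-numbered libraries correlated at 0.027, 0.0075 and -0.038 in H82 and at -0.11, -0.065 and 0.011 in H146, so the number is not taken to mark a shared culture.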
